A study of Salvia dorisiana with 6 samples.

Results

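The last stage of leaf growth in *Salvia dorisiana*, a fruit-scented sage, was examined by setting the library of leaves >10 cm against the library of leaves 3–10 cm, over all 85 transcripts of the table used here, 85 of 85. The table lists transcripts that the study had kept for a high level in isolated trichomes and for a tissue profile like that of the limonene synthase SdLS and of the methylperillate (MePA) metabolites, so a trichome profile is a property of the list and not a finding about it. Both libraries came from greenhouse plants propagated as cuttings under a 16 h photoperiod without treatment, and they are 2 of 6 libraries, the others being trichomes, leaves <3 cm, stem and roots. How many leaves or plants entered each RNA isolation is not given in the sources used here. Each tissue has 1 library, so no difference between the leaf sizes has a replicate check, no test was made, and the intervals given are exact 95% intervals for counting error alone. Levels are the authors' RPKM, in which the reads of a transcript are divided by its length and by the number mapped in that library. Mapping went to open reading frames assembled from trichome RNA and let a read match several places, so near-identical family members can share reads. Ratios are the log2 of RPKM + 1 in leaves >10 cm over RPKM + 1 in leaves 3–10 cm, and a transcript is counted as changed at 2-fold, a rule of size. The depth recovered from the steps of the RPKM values was 9454204 mapped fragments (read pairs counted once) in leaves >10 cm and 19415968 in leaves 3–10 cm. Larger whole multiples of these totals would fit as well and would only narrow the counting intervals. A listed transcript had a median of 967 fragments in leaves >10 cm, with a lowest of 3, and a median of 3148 in leaves 3–10 cm, with a lowest of 122.

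Glandular trichomes of the mint family are small multicellular hairs that make and store terpenoids. In mints and sages they are formed mostly while the leaf is young, and secretion takes place early in their life, whereas leaf area goes on growing. Monoterpenes are built from isopentenyl diphosphate and dimethylallyl diphosphate of the plastidic methylerythritol phosphate (MEP) pathway, which in green leaves also feeds carotenoids, the side chains of chlorophyll and other isoprenoids. A whole-leaf library mixes trichomes with epidermis, mesophyll and vein. A smaller share of trichome RNA in the library and lower levels within the trichome cells therefore cannot be told apart in these data. Genes that define mesophyll or epidermis, such as those of photosystems, are not among the listed transcripts, and the leaf identity of the libraries was therefore not checked against markers.

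Most of the listed transcripts were lower in leaves >10 cm than in leaves 3–10 cm. A ratio below 0 was found for 70 of the 85 (82.4% of those compared) and a ratio above 0 for 15 (17.6%). The median log2 ratio was −0.98, a level 1.98-fold lower in leaves >10 cm, and the range ran from −3.28 to 0.95. At the 2-fold rule 42 transcripts were lower (49.4%) and 0 were higher (0%), and 10 of the 42 were lower by 4-fold or more. The counting interval lay below equality for 68 transcripts and above it for 14, and it held equality for 3, which are clust5293, clust3307 and clust4242. The nearest transcripts on either side of the 2-fold rule were the sesquiterpene synthases clust2225, at −1.03, and clust3938, at −0.98, and their counting intervals overlap. Since the whole list enters the comparison, these percentages are also the background for every group. The split rests on the RPKM scale: relative to the median of the primary carbon and energy transcripts 60 were lower and 24 higher, and centred on the list's own median 42 lay on either side. The primary carbon and energy transcripts were kept by the same selection as the rest of the list, so they are not an outside reference. Of the group medians, those of the dehydrogenases or reductases and of the acyltransferases turned to above 0 relative to the primary transcripts, and those of the sieve element occlusion, lipid and cuticle, P450 and terpene synthase groups were the 4 still below 0 when centred on the list median. As the transcripts were kept for profiles resembling SdLS in these very libraries, a lower level in the largest leaves is not independent evidence about any of them.

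**Figure D1:**
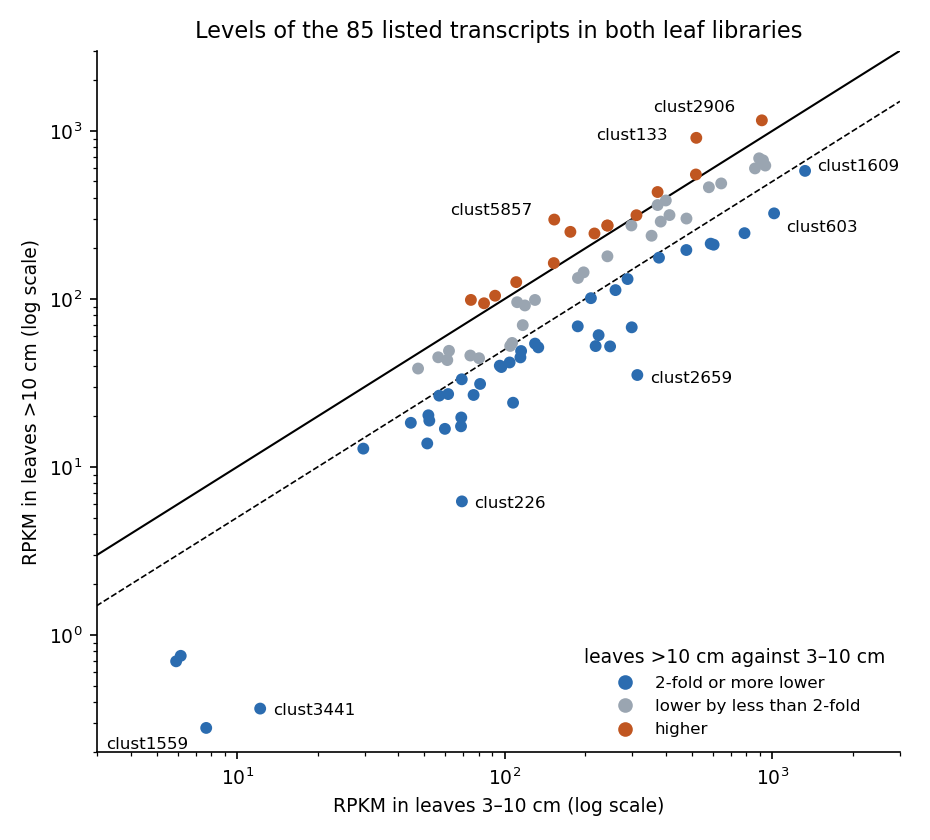
Level of each of the 85 listed transcripts in leaves >10 cm (y axis) against leaves 3–10 cm (x axis), both as RPKM on log axes, with equality as a solid line and a 2-fold lower level as a dashed line. Of the points, 42 are 2-fold or more lower in leaves >10 cm, 28 are lower by less and 15 are higher, and 4, among them clust3441 and clust1559, lie apart at the lower left.

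The leading transcripts changed places between the libraries. In leaves >10 cm the most abundant was clust2906, a BURP-domain protein annotated as dehydration-responsive, at 1156 RPKM against 914 in leaves 3–10 cm. Next came clust133, the hydroxymethylbutenyl diphosphate synthase of the MEP pathway, at 909.6 against 520.2 RPKM, which stood at rank 13 in leaves 3–10 cm. The P450 clust1609, closest to the diterpenoid enzyme ferruginol synthase, was at 578 RPKM in leaves >10 cm, rank 7, against 1326 in leaves 3–10 cm, where it led. The SdLS cluster was at rank 14 in leaves >10 cm and at rank 2 in leaves 3–10 cm. Of the 10 most abundant transcripts of each library 7 were shared. Across the 85 transcripts the levels of both libraries had a Spearman rho of 0.90 on the same scale, a description over transcripts of 1 list, which are not independent replicates.

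All 4 genes of the MePA pathway were 2-fold or more lower in leaves >10 cm on the RPKM scale, against 49.4% of the list. As the list was kept for profiles like that of SdLS, their shared direction is not independent evidence about the pathway. Relative to the primary carbon and energy transcripts SdPOHDH was at a log2 ratio of −0.93 and no longer past 2-fold, and centred on the list median none of the 4 was, at −0.84 for SdPAOMT, −0.67 for SdLS, −0.48 for SdL7H and −0.33 for SdPOHDH. SdLS, which forms limonene from geranyl diphosphate, shares its cluster (clust603) with the eucalyptol synthase SdEuS, and the cluster was at 323 RPKM in leaves >10 cm against 1016 in leaves 3–10 cm, 3.14-fold lower (3.06–3.24). SdL7H (clust1545) is the limonene 7-hydroxylase, a P450, and had 213 RPKM against 589, 2.76-fold lower (2.65–2.87). SdPOHDH (clust2459), the dehydrogenase that oxidizes perillyl alcohol, was at 20.3 RPKM, against 51.9 in leaves 3–10 cm, 2.55-fold lower (2.21–2.96). SdPAOMT (clust2833), the methyltransferase that makes the methyl ester from perillic acid, had the lowest level and the lowest ratio of the 4 genes. Its 13.8 RPKM in leaves >10 cm came from 137 fragments, and its 51.4 RPKM in leaves 3–10 cm from 1047, which is 3.72-fold lower (3.11–4.48). The intervals of SdPAOMT and SdLS overlap, as do those of SdL7H and SdPOHDH, whereas that of SdLS lies wholly above those of SdL7H and SdPOHDH. The SdLS cluster stood 1.51 times above SdL7H in leaves >10 cm and 1.73 times in leaves 3–10 cm, both per length. It stood 15.9 against 19.6 times above SdPOHDH, and 23.4 against 19.8 times above SdPAOMT, where the order of the leaf sizes was the opposite. The median log2 ratio of the 4 genes was −1.56, against −0.98 over the list, and together they took 0.0927% of the mapped fragments, against 0.279% in leaves 3–10 cm.

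Among the 13 terpene synthases, which fold prenyl diphosphates into the terpene skeletons, 11 were lower in leaves >10 cm, 9 of them by 2-fold or more, and 2 were higher. The group had a median log2 ratio of −1.15, against −0.98 over the list, of which 82.4% were lower and 49.4% by 2-fold or more. The 3 annotated as diterpene synthases were all 2-fold or more lower. The copalyl diphosphate synthase clust70, whose kind of enzyme makes the first ring closure of labdane-type diterpenes, was at 60.9 RPKM in leaves >10 cm against 224 in leaves 3–10 cm, 3.69-fold lower (3.48–3.90). The kaurene or sclareol synthase-like clust927 was at 16.9 against 59.8 RPKM, and the kaurene or miltiradiene synthase-like clust874 at 26.6 against 56.9 RPKM. The 7 annotated as sesquiterpene synthases, which act on farnesyl diphosphate, ranged widely. The caryophyllene or germacrene D synthase-like clust1050 was at 52.4 RPKM, against 219 in leaves 3–10 cm, 4.17-fold lower (3.82–4.56), the lowest ratio of the group. Another with germacrene D and caryophyllene synthases as its nearest matches, clust1093, was at 19.7 against 68.8 RPKM, 3.49-fold lower (3.10–3.94). The cadinene or germacrene B synthase-like clust1244 was at 44.9 against 114.5 RPKM, 2.55-fold lower (2.34–2.79).

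The germacrene D or patchoulol synthase-like clust2225 and clust3938, on either side of the 2-fold rule, were lower by 2.08-fold (1.83–2.37) and 1.997-fold (1.80–2.23). The germacrene D synthase-like clust1129, the second of the group in leaves >10 cm, was at 316 RPKM there against 413 in leaves 3–10 cm, 1.31-fold lower (1.27–1.35), so that it stood 1 place below the SdLS cluster in the order of levels. The germacrene D synthase-like clust1421 had 163 against 153 RPKM, a ratio of 1.07 (1.02–1.12). SdSaS (clust1265), the sabinene synthase of the study, is trans-α-bergamotene synthase-like by its BLAST name. It was at 104.5 RPKM against 92.1, a ratio of 1.14 (1.07–1.21). The cluster labelled SdPS (clust629), a β-pinene synthase by that label, was at 27.2 RPKM in leaves >10 cm against 61.5 in leaves 3–10 cm, 2.26-fold lower (2.05–2.50). Monoterpene synthases of the list thus included both directions, with SdPS and the cluster shared by SdLS and SdEuS lower and SdSaS higher in leaves >10 cm. SdLS and SdEuS cannot be told apart within that cluster.

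All 10 P450s, the haem enzymes that oxidize terpene skeletons and many other substrates, were lower in leaves >10 cm, and 9 were lower by 2-fold or more. Their median log2 ratio was −1.39, against −0.98 over the list, of which 82.4% were lower and 49.4% by 2-fold or more. The lowest belonged to clust1523, named CYP71AT89, at 52.2 RPKM in leaves >10 cm against 248 in leaves 3–10 cm, 4.75-fold lower (4.40–5.12). The only P450 within 2-fold, clust1660, carries the same CYP71AT89 annotation and was at 54.7 against 106.6 RPKM, 1.95-fold lower (1.80–2.11), so that both had nearly the same level in leaves >10 cm and differed in leaves 3–10 cm. Among the 4 of CYP76 or ferruginol synthase type, clust1568 was at 67.8 against 298 RPKM, 4.40-fold lower (4.12–4.71), while clust1609, the most abundant P450 in both libraries, was 2.29-fold lower (2.24–2.35). The CYP76AK6-like clust1540 and the ferruginol synthase-like clust1600 were lower by 2.14-fold (2.05–2.24) and 2.47-fold (2.23–2.74). The partial CYP71B9-like clust5902 was at 17.5 against 68.7 RPKM, 3.93-fold lower (3.20–4.88), from 103 fragments in leaves >10 cm. The 3 closest to menthofuran synthase, a monoterpene-oxidizing P450 of mint, lay close together, with SdL7H, clust3466 and clust4348 lower by 2.76-, 2.73- and 2.59-fold and overlapping intervals.

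**Figure D2:**
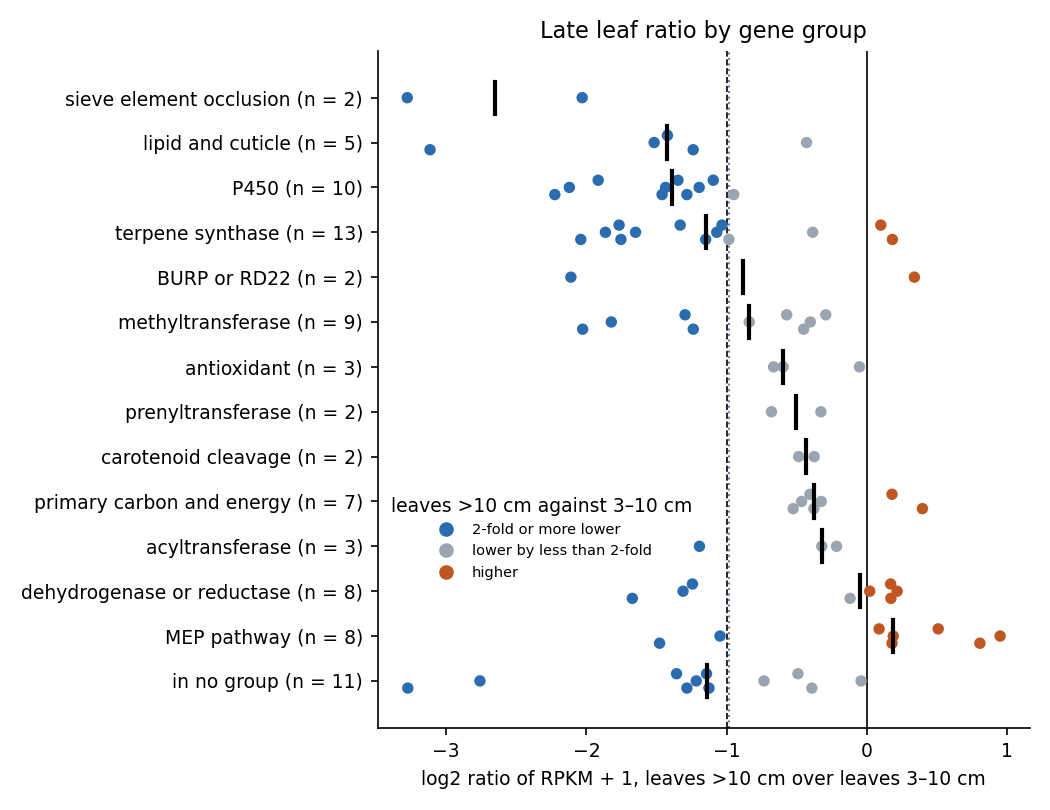
Log2 ratio of RPKM + 1 in leaves >10 cm over leaves 3–10 cm for each listed transcript (points), by gene group with its median as a black bar. The solid line marks equality, the dashed line a 2-fold lower level and the dotted line the list median of −0.98. The MEP pathway is the only group whose median lies above 0 on this scale (3 groups relative to the primary carbon and energy transcripts, 9 when centred on the list median), and sieve element occlusion has the lowest median, from 2 transcripts.

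The MEP pathway transcripts were mostly higher. Of 8, 6 were higher in leaves >10 cm, against 17.6% of the list, and 2 were 2-fold or more lower, against 49.4%. Their median log2 ratio was 0.18, also above 0 under each other scaling tried. The 2 lower ones stand at the ends of the pathway as listed. The 1-deoxy-D-xylulose 5-phosphate synthase (DXS) clust158, which catalyses the entry step from pyruvate and glyceraldehyde 3-phosphate, was at 101 RPKM in leaves >10 cm against 210.0 in leaves 3–10 cm, 2.08-fold lower (1.98–2.18). The isopentenyl diphosphate isomerase (IDI) clust3980, which interconverts the 2 isomers that the pathway delivers, was at 26.8 against 76.5 RPKM, 2.85-fold lower (2.43–3.36).

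Every listed enzyme between these ends was higher in leaves >10 cm, against 17.6% of the list. The reductoisomerase (DXR) clust5857, which makes methylerythritol phosphate, was at 297 RPKM, against 153 in leaves 3–10 cm, a ratio of 1.94 (1.81–2.07) and the highest of all 85. The transcript clust1689 is named as a synthase by its BLAST match but carries the DXR domains in its Pfam annotation. It was at 245 against 217 RPKM, a ratio of 1.13 (1.09–1.18). Its recovered length was 1425 nt, against 627 nt for clust5857, and their intervals do not overlap. The high ratio of clust5857 thus belongs to the shorter entry and was not shared by clust1689. The kinase (CMK) clust2269, which phosphorylates the cytidyl intermediate, was at 126 against 110.4 RPKM, a ratio of 1.14 (1.04–1.24). The cyclodiphosphate synthase (MDS) clust4785 was at 251 against 176 RPKM, a ratio of 1.42 (1.34–1.51). The iron-sulphur enzyme hydroxymethylbutenyl diphosphate synthase (HDS), clust133, had the second highest ratio of the list, 1.75 (1.71–1.78), at the levels given above. The last enzyme, the corresponding reductase (HDR), clust1630, was at 550.5 RPKM, against 518 in leaves 3–10 cm, a ratio of 1.06 (1.03–1.09). Over these 6 transcripts the median log2 ratio was 0.35, and their share of mapped fragments was 0.341% in leaves >10 cm against 0.240% in leaves 3–10 cm.

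**Figure D3:**
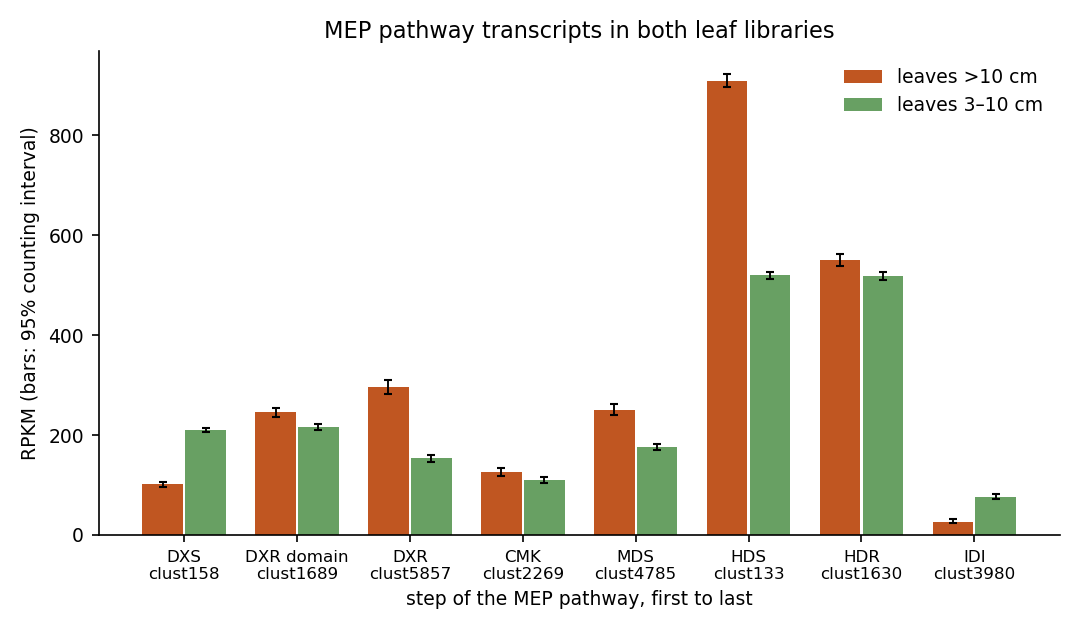
RPKM of the 8 MEP pathway transcripts in leaves >10 cm (left bar of each pair) and leaves 3–10 cm (right bar), in the order of the pathway, with 95% counting intervals as error bars. The bars for DXS and IDI, the first and last shown, are lower in leaves >10 cm and the 6 between them are higher. The largest ratios are those of the 627-nt DXR entry clust5857 (297 against 153 RPKM) and of HDS (clust133, 909.6 against 520.2 RPKM). The 1425-nt clust1689 with DXR domains is at 245 against 217 RPKM.

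Over the 3 leaf sizes from small to large, clust5857 was at 149.9, 153 and 297 RPKM, clust4785 at 209, 176 and 251 RPKM and clust133 at 628, 520.2 and 909.6 RPKM. These 3 had their highest leaf level in the largest leaves. The other 3 of the middle steps were highest in leaves <3 cm and lowest in leaves 3–10 cm, with clust1689 at 269, 217 and 245 RPKM, clust2269 at 155, 110.4 and 126 RPKM and clust1630 at 703, 518 and 550.5 RPKM. The levels of clust158 over the same sizes were 425, 210.0 and 101 RPKM, and those of clust3980 were 151, 76.5 and 26.8 RPKM. Both clust158 and clust3980 had their lowest leaf level in the largest leaves. The steps on either side of leaves 3–10 cm share that library, so their ratios are not independent of each other. The 2 prenyltransferases, closest to lavandulyl diphosphate synthase, which joins dimethylallyl diphosphate units in lavender, were lower by 1.62-fold in clust3337 (1.45–1.81) and by 1.26-fold in clust3861 (1.12–1.42).

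The 9 methyltransferases were all lower in leaves >10 cm, 4 of them by 2-fold or more. Over the list 82.4% were lower and 49.4% by 2-fold or more. The group's median log2 ratio was −0.84, less low than the −0.98 of the list. The 4 with a Methyltransf_2 domain, which is typical of *O*-methyltransferases acting on flavonoids and phenylpropanoids, had a median of −1.27. The steepest was clust2791, closest to caffeic acid *O*-methyltransferases of phenylpropanoid metabolism, at 0.697 RPKM in leaves >10 cm, from 7 fragments, against 5.92 in leaves 3–10 cm, from 122. It was 8.49-fold lower (3.996–21.6) without the pseudocount, while its log2 ratio of −2.03 understates that difference. The flavonoid methyltransferase-like clust2724 was at 40.1 against 95.9 RPKM and clust2472 at 41.9 against 104 RPKM, while the flavone 8-*O*-methyltransferase-like clust2684 was 1.81-fold lower (1.63–2.01). Of the 3 SABATH transcripts (domain Methyltransf_7, a family that methylates carboxyl groups), SdPAOMT was 3.72-fold lower, while clust2514 had 487 RPKM, against 645 in leaves 3–10 cm, and clust4450 had 238 against 354 RPKM. Those 2 were lower by 1.32-fold (1.28–1.37) and 1.49-fold (1.41–1.57), and neither interval reaches that of SdPAOMT. Outside these families, the phylloquinone methyltransferase-like clust4440 was 1.37-fold lower (1.28–1.47) and the cyclopropane fatty acid synthase-like clust15 1.23-fold (1.14–1.33).

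The 8 dehydrogenases or reductases were split, with 4 lower and 4 higher, against 82.4% and 17.6% of the list. Their median log2 ratio was −0.05, and 3 of the 8 were lower by 2-fold or more, against 49.4% of the list. Those lower by 2-fold or more were the phenylcoumaran benzylic ether reductase-like clust3515, of a family known from lignan metabolism, at 246 RPKM in leaves >10 cm against 788 in leaves 3–10 cm, SdPOHDH, and the aldehyde dehydrogenase clust1416 at 54.2 against 129.8 RPKM. All 3 short-chain dehydrogenases had ratios above 0. The TIC 32-like clust3054 was at 273 against 243 RPKM, a ratio of 1.13 (1.07–1.18), the menthol dehydrogenase-like clust3165 at 94.2 against 83.7 RPKM, a ratio of 1.13 (1.04–1.22), and the peroxisomal enoyl-CoA reductase-like clust4242 at 315 against 311 RPKM, a ratio that counting error covers. Of the zinc-type 2-alkenal reductases, which reduce reactive carbonyls, clust3274 was higher at 433 against 373 RPKM, a ratio of 1.16 (1.12–1.21), and clust2675 lower at 274 against 298 RPKM, 1.09-fold (1.04–1.14).

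The 2 steepest differences without the pseudocount belonged to transcripts of under 1 RPKM in leaves >10 cm. The uncharacterized clust3441 was at 0.365 RPKM (3 fragments), against 12.2 in leaves 3–10 cm (206 fragments), a 33.4-fold difference with an interval of 11.3–163. The serine carboxypeptidase-like clust1559, of a family that includes acyltransferases as well as peptidases, was at 0.2798 RPKM, from 4 fragments, against 7.66, from 225, which is 27.4-fold lower (10.6–101). Both were abundant in trichomes, at 1838 RPKM for clust3441 and 1004 RPKM for clust1559. At these counts the size of the difference is poorly fixed, although each interval stays above 10-fold.

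The 2 sieve element occlusion proteins, structural proteins of phloem sieve tubes in other species, were also among the 10 lowest ratios. The better covered, clust226, was at 6.24 RPKM (126 fragments), against 69.2 in leaves 3–10 cm (2870 fragments), 11.1-fold lower (9.28–13.4) and the lowest log2 ratio of the list, −3.28. Its levels over the leaf sizes from small to large were 625, 69.2 and 6.24 RPKM. The second, clust219, was at 0.752 against 6.16 RPKM, from 11 and 185 fragments, 8.19-fold lower (4.47–16.7). Their intervals overlap, although their log2 ratios, computed with the pseudocount, are −3.28 and −2.03. Both were far higher in trichomes, at 1467 RPKM for clust226 and 1431 for clust219, than in stem, at 9.33 and 0.794 RPKM.

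All 5 transcripts of lipid and cuticle metabolism were lower in leaves >10 cm and 4 by 2-fold or more, against 82.4% and 49.4% of the list. Their median log2 ratio was −1.42, against −0.98 over the list. The GDSL esterase or lipase clust2659, of a large family of plant hydrolases, was at 35.3 RPKM in leaves >10 cm against 313 in leaves 3–10 cm, 8.88-fold lower (7.99–9.90). It was among the best covered of the steep ones, with 364 and 6639 fragments, and stood at rank 66 of the list in leaves >10 cm against rank 24 in leaves 3–10 cm. The other GDSL transcript, clust2690, was at 210.3 against 604 RPKM, 2.87-fold lower (2.74–3.01). Over the leaf sizes from small to large it was at 480.4, 604 and 210.3 RPKM, so that leaves 3–10 cm were its highest leaf library. The ketoacyl-ACP synthase clust1812, a condensing enzyme of fatty acid synthesis, was at 18.9 against 52.3 RPKM, and the fatty acyl-CoA reductase clust2942, of a family that makes fatty alcohols, at 18.3 against 44.6 RPKM. The ECERIFERUM 1-like clust458, related to an Arabidopsis protein needed for wax alkanes, was at 179 against 242 RPKM, 1.35-fold lower (1.30–1.41).

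Primary carbon and energy metabolism was lower by less. None of its 7 transcripts was 2-fold lower, against 49.4% of the list. Of the 7, 5 were lower and 2 higher, against 82.4% and 17.6% of the list, and the median log2 ratio was −0.38. The beta subunit of mitochondrial ATP synthase, clust1041, had 598 RPKM in leaves >10 cm against 862 in leaves 3–10 cm, 1.44-fold lower (1.41–1.47), and the ATP synthase subunit O, clust4711, had 462 against 579.6 RPKM, 1.25-fold lower (1.21–1.31). The chloroplastic triosephosphate isomerase clust2916 was at 668 against 923 RPKM and the mitochondrial malate dehydrogenase clust1810 at 687 against 893. Both higher ones are annotated as chloroplastic. They were the phosphoenolpyruvate/phosphate translocator clust2305, which brings phosphoenolpyruvate into plastids, at 98.7 against 74.8 RPKM, a ratio of 1.32 (1.22–1.42), and the chloroplastic glucose-6-phosphate isomerase clust628, at 274 against 242 RPKM, a ratio of 1.13 (1.09–1.17). The fructose-bisphosphate aldolase clust2220, also annotated as chloroplastic, was at 289 against 383 RPKM, 1.33-fold lower (1.28–1.38), so plastid annotation did not go with 1 direction.

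The remaining groups differed by less than 2-fold, apart from 1 acyltransferase and 1 RD22-like transcript, whereas 49.4% of the list was 2-fold or more lower. Of the 3 antioxidant transcripts, the peroxiredoxin clust5140 was at 301 RPKM in leaves >10 cm against 478 in leaves 3–10 cm, the CuZn superoxide dismutase clust5995 at 622 against 942, and the glutathione peroxidase clust5293 at 386 against 400.1, a ratio of 0.964 (0.919–1.011). The 2 carotenoid cleavage dioxygenases, which cut carotenoids into apocarotenoids, were lower by 1.41-fold in clust976 (1.29–1.54) and 1.30-fold in clust1111 (1.22–1.39). Of 3 acyltransferases, the alcohol acyltransferase-like clust1946 was 2.30-fold lower (2.16–2.45), while the vinorine synthase-like clust5317 and the malonyltransferase-like clust1854 were lower by 1.26-fold (1.10–1.44) and 1.16-fold (1.09–1.24). The BURP-domain clust2906 had a ratio of 1.26 (1.23–1.29), and the RD22-like clust2665 was at 24.1 against 107 RPKM, 4.46-fold lower (3.82–5.22).

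Of the 11 transcripts placed in no group, all were lower in leaves >10 cm and 7 by 2-fold or more, against 82.4% and 49.4% of the list. The 7 stood in a set with a median log2 ratio of −1.14, against −0.98 over the list. Beside clust3441 and clust1559 these were clust2795 and clust3478, uncharacterized proteins with Steroid_dh and NmrA domains among their Pfam matches, the chalcone isomerase clust6044 of flavonoid synthesis, the nucleoside diphosphate kinase clust5193 and clust4655, the only transcription factor of the list by annotation. The last is closest to the ethylene-responsive factor ESR2 and was at 12.9 RPKM in leaves >10 cm, from 93 fragments, against 29.6 in leaves 3–10 cm, 2.30-fold lower (1.84–2.91). The PDR-type ABC transporter clust10, of a family that exports terpenoids in other plants, was at 69.8 against 117 RPKM, 1.67-fold lower (1.59–1.76). The membrane steroid-binding protein-like clust5333 was 1.41-fold lower (1.30–1.52) and the phenazine biosynthesis-like clust4414 1.32-fold (1.21–1.43). The epoxide hydrolase-like clust3307 was at 362 against 373 RPKM, a difference that counting error covers.

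Transcripts with the same annotation did not always have the same ratio. In 8 of 11 sets of like-named transcripts, the counting intervals of the lowest and the highest member did not overlap. Taken pair by pair, 12 of the 20 like-named pairs (60.0%) had intervals apart, against 84.7% of all 3570 pairs of listed transcripts, so intervals that lie apart are common in the list and say nothing particular about like-named transcripts. The widest gap was between the RD22-like clust2665 and the BURP-domain clust2906, at 2.45 on the log2 scale, followed by the GDSL pair, at 1.60, and the SABATH trio, at 1.42. The sieve element occlusion pair, the carotenoid cleavage pair and the menthofuran synthase-like trio were the 3 sets whose intervals overlapped. As reads could be assigned to several similar transcripts, the gap between true levels of close copies cannot be told from these values.

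Weighed by fragments, the listed transcripts together took 1.83% of the mapped fragments in leaves >10 cm (1.82–1.84), against 2.72% in leaves 3–10 cm (2.72–2.73). The make-up of the listed fragments also differed. P450s held 10.1% of the listed fragments in leaves >10 cm against 17.6% in leaves 3–10 cm, and terpene synthases 11.1% against 16.1%. The MEP pathway held 19.9% against 10.7%, and primary carbon and energy metabolism 20.3% against 17.4%. In leaves >10 cm these last 2 groups were thus the largest of the 13, whereas the P450s led in leaves 3–10 cm. A share leans on its most abundant members, in the MEP pathway clust133 with 17053 fragments in leaves >10 cm.

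**Figure D4:**
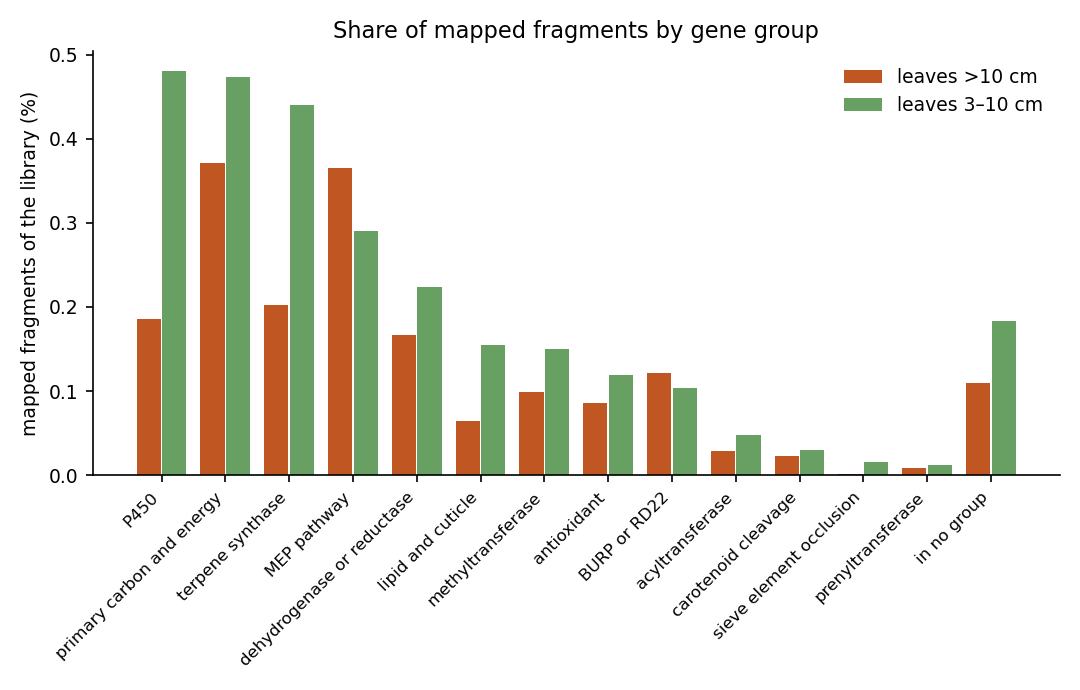
Share of all mapped fragments of each library taken by each gene group (y axis, %), with leaves >10 cm as the left and leaves 3–10 cm as the right bar. The MEP pathway (0.365% against 0.290%) and the BURP or RD22 pair (0.121% against 0.103%) are the groups with the higher bar in leaves >10 cm.

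The libraries outside the comparison gave a further description of the classes. The 42 transcripts that were 2-fold or more lower had a median of 24.1 RPKM in stem (0.794–428) and 3.66 in roots (0.144–750.1). The 28 that were lower by less had medians of 97.8 RPKM in stem (1.79–1253) and 11.4 in roots (0.443–908). The 15 that were higher, with 6 MEP pathway transcripts among them, had medians of 98.0 RPKM in stem (4.47–1261) and 126 in roots (0.644–1032). The ranges of the classes thus overlap widely. In trichomes the medians were 1998, 1748 and 1688 RPKM in the same order of classes. The lowest trichome levels were 1004, 1015 and 1056 RPKM and the highest 22701, 11344 and 6891 RPKM. As the study kept only transcripts above a trichome cut-off, the closeness of these medians follows partly from the selection. By median the 2-fold lower class stood below the others in stem, where those had nearly the same median, and in roots the 3 medians differed. Across all 85 transcripts the late leaf ratio had a Pearson r of −0.57 and a Spearman rho of −0.63 with the log2 ratio of trichomes over stem, that is, transcripts further above stem in trichomes were lower in leaves >10 cm. With the log2 trichome level itself, which the cut-off bounds from below, r was −0.05. These correlations are across transcripts of a list that the study selected on the same libraries, all points share the same 4 libraries, and no test was made. Among the transcripts against this trend was the translocator clust2305, at 1056 RPKM in trichomes and 4.47 in stem with a late leaf ratio above 0. The menthol dehydrogenase-like clust3165, at 1578 RPKM in trichomes and 19.4 in stem, also had a ratio above 0.

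**Figure D5:**
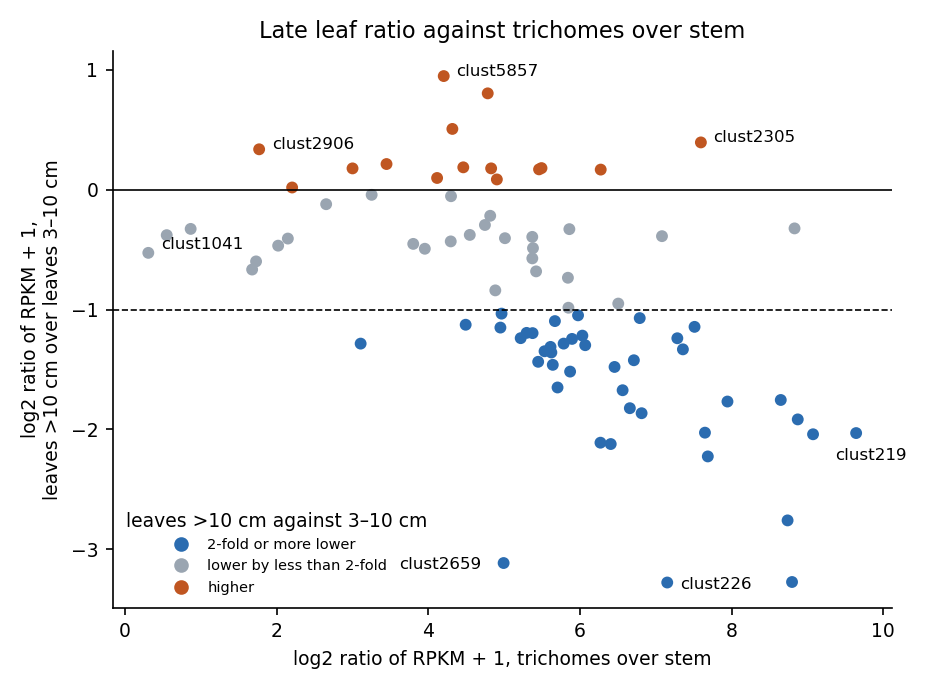
Log2 ratio of RPKM + 1 in leaves >10 cm over leaves 3–10 cm (y axis) against the log2 ratio in trichomes over stem (x axis) for the 85 listed transcripts, with equality (solid) and a 2-fold lower leaf level (dashed) marked. Points lie lower towards the right (Spearman rho −0.63), with clust2305 above 0 and the GDSL transcript clust2659 below the cloud.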

How the data were processed

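RNA of 6 *S. dorisiana* tissues was sequenced as stranded read pairs, 1 library each, on a HiSeq2500, and separated with CASAVA 1.8.1 per the submitters' processing notes. The authors mapped the reads with CLC Genomics Workbench 8.0 to consensus open reading frames (600 nt or longer) of PacBio trichome transcripts, counting a pair once, on both strands, with up to 10 hits per read. The deposited table used here holds the authors' RPKM values for 85 transcripts chosen on these libraries, and 2 columns of their own correlations, which were not used. It has 0 RPKM columns that belong to no listed sample.

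RPKM values were used as deposited, with a pseudocount of 1 RPKM and no filter. Whole fragments were recovered from RPKM (lengths in steps of 3 nt from 600 nt, totals of at least 1000000): 510 of 510 values were whole within 0.001, at lengths of 609 to 2961 nt. The totals were chosen so that counts do not share a factor across transcripts, as larger whole multiples of them fit equally well. Tested on simulated data for this comparison (5 tables of 85 transcripts), 100% of the totals and 99.3% of the transcripts were found. Ratios have exact binomial intervals (Clopper-Pearson) and RPKM values exact Poisson ones, at 95%, for counting error only, as PCR copies were not identified.

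By their BLAST names and Pfam domains, 74 transcripts were sorted by hand into 13 groups, and 11 were left ungrouped. Named by rule were the characterized genes, the 10 lowest and 10 highest ratios, all of the MEP pathway, both extremes of each group and the 5 most abundant in leaves >10 cm, 44 in all. All others were named with their values known, so that every member is accounted for. The comparison, groups and alternatives were chosen with earlier results of these data known. No sequence of the transcripts was used here. The software was matplotlib 3.10.9, scipy 1.17.1, numpy 2.4.6 and pandas 2.3.3 under Python 3.11.15. Alternatives were other pseudocounts, a filter on low RPKM, scaling to the primary metabolism or list median, a 1.5-fold rule and the counting intervals.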

Additional observations from a re-analysis of the deposited data

How the results depend on the processing

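No paired analysis was possible because each tissue has 1 library. A pseudocount of 10 RPKM moved the median log2 ratio over all transcripts to −0.73, requiring at least 10 RPKM in both leaf libraries moved it to −0.79, with 80 transcripts left, and setting ratios relative to the primary carbon and energy transcripts moved it to −0.61. Relative to those transcripts, 22 were 2-fold or more lower, 2 were 2-fold or more higher, 60 were lower and 24 higher. Centred on the list median, which by construction splits the list evenly, 10 were 2-fold or more lower and 15 higher by as much, with 42 on either side of 0. At 1.5-fold, 49 were lower and 2 higher. Pseudocounts of 0.1 and 10 RPKM gave 42 and 33 transcripts 2-fold lower, with 0 higher in both. With the whole counting interval past the limit, 37 were 2-fold lower, 0 were 2-fold higher, 68 were lower and 14 higher. The MEP pathway had the only group median above 0 with either pseudocount and with the filter. Without a shared scale between the libraries, the sign of small ratios rests on the RPKM scaling. The variation between plants and library preparations cannot be seen with 1 library per tissue, and the 5 transcripts under 100 fragments in leaves >10 cm have wide intervals.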
